A study of Mus musculus with 4 samples.

Results

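Interferon-stimulated antiviral genes were followed gene by gene in mouse mammary organoids. The group holds 33 listed genes of the 32285 genes in the deposited tables, and all 33 were found there by symbol. They are the Ifit genes, the Oas genes, the Isg15 system, interferon-responsive transcription factors, membrane and nuclease effectors, the interferon-inducible Parp genes with Dtx3l, and 4 further inducible genes. Members are given by name. The list was drawn up with earlier results of these data known, so the choice of members is not independent of them.

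The organoids are three-dimensional cultures of mammary epithelium, from virgin female mice with 1 truncating allele of Brca2 (Brca2mut/WT) or from wild-type littermates. They were left untreated or exposed to hydroxyurea (HU), which stalls DNA replication, and frozen organoids were thawed, grown and dissociated with TrypLE before droplet capture on all 4 arms. There was 1 library for each of the wild-type control, wild-type HU, Brca2mut/WT control and Brca2mut/WT HU conditions. The labels give 2 replicates inside each library, and the passage of a library was not stated, so differences between libraries have no replicate check. In the paper, organoids of an early and a late passage were sequenced, and HU was repeated over serial passages. A library may hold either passage or a mix, so the number of HU exposures behind an HU library is not known. Below, 4 values in a row follow 1 library order: wild-type control, wild-type HU, Brca2mut/WT control, Brca2mut/WT HU.

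Type I and type III interferons are secreted when a cell senses foreign or misplaced nucleic acid. They bind receptors on the same cell or on neighbours, and the kinases Jak1 and Tyk2 then activate transcription factors, among them Stat2 with Irf9, that bind interferon-stimulated response elements in target promoters. Many of the products block a step of viral replication, and many epithelia express them at a low level without infection. Several of the genes also encode parts of the pathway (Stat2, Irf9, Irf7) or its brakes (Usp18), so their levels are both a readout and a component of the response.

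Promoter sequences are shown for the members that hold the core of this response element, since these genes are compared with one another below. The window from 250 bases before to 50 bases after the start site was taken from RefSeq on GRCm38.p6, and 27 of the 33 members had an entry (33 windows, as some genes have several start sites). The core searched for, GAAA followed after any 2 bases by GAAA, on either strand, was found in 10 of these 33 windows (30.3%), against 3.44% of 32851 windows of all genes. By gene this was 10 of 27 members (37%), against 3.99% of 27025 genes with an entry. Each sequence runs 5′ to 3′ on the gene's own strand with the matched bases in capitals. In Ifit1, Ifit3, Ifit3b, Rsad2 and Stat2 the match reads as the reverse complement. In Bst2, Isg15 and Oas1a matches overlap, and the capitals cover the whole run. Ifit1, Ifit3, Ifit3b and Ifitm3 have a further match that is not shown. The bases after the start site were found in a GENCODE transcript of the gene for all of them except Bst2, Ifit3b and Stat2, whose start sites rest on RefSeq alone.
Isg15, chr4:156200871-156200900, minus strand: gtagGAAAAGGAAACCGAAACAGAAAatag
Ifit1, chr19:34640775-34640804, plus strand: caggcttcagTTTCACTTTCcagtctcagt
Ifit3, chr19:34583363-34583392, plus strand: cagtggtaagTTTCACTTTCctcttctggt
Ifit3b, chr19:34607759-34607788, plus strand: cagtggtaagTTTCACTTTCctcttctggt
Rsad2, chr12:26456553-26456582, minus strand: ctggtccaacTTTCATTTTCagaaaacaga
Bst2, chr8:71537580-71537609, minus strand: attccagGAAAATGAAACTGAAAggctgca
Oas1a, chr5:120907523-120907552, minus strand: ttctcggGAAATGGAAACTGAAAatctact
Oas3, chr5:120777715-120777744, minus strand: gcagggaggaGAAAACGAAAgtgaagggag
Stat2, chr10:128270266-128270295, plus strand: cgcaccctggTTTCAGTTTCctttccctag
Ifitm3, chr7:141010723-141010752, minus strand: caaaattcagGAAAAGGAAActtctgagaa

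The Isg15 run holds 3 overlapping matches and starts 78 bases before the start site. The windows of Ifit3 and Ifit3b, neighbours on chromosome 19, have the same letters. The Ifitm3 match begins at base 3 of the transcript. Among the members with an entry, those without the response element core in this window included Cmpk2, Oasl1, Ifit2, Sp100, Isg20, Irf1, Irf7 and Irf9.

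The 4 libraries held 1062504699 gene UMIs (unique molecular identifiers, each a counted RNA molecule) in 33268 cells, and the median cell of a library had 25444 to 29087. Limits of 1000 to 6000 genes and under 5% mitochondrial UMIs were applied anew to these cells and kept 17360. The paper retained more cells after its quality control than the deposited tables hold, so its set of cells is a different one. Levels are given as CPM, the share of a gene in all gene UMIs scaled to 1000000. Lineages were set by rule on the CPM of each cell, as basal with Krt14 of at least 500, HR+ luminal with Areg of at least 300 and HR- luminal with both under 300. This gave 14008 HR- luminal, 2217 basal and 569 HR+ luminal cells. The 7 HR- luminal markers together reached 22980 to 27230 CPM in the lineage they mark, and 2704 or less elsewhere. Of 10 immune markers, 4 to 9 were at 0 in any lineage and library, their sum was at most 11.85 CPM, and Ptprc and Tyrobp were at 0 throughout. HR+ luminal cells carried 702 to 1661 CPM of the stromal gene Dcn, while Col3a1 was at 0 there. Brca2 itself was at 5.34, 5.5, 4.27 and 3.92 CPM in the 4 libraries. The 95% Poisson intervals of the wild-type libraries (4.94 to 5.75 and 5.07 to 5.95) lay above those of the Brca2mut/WT libraries (3.87 to 4.7 and 3.5 to 4.37). Across libraries, 129 cell barcodes occurred more than 1 time.

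The first question was in which lineage the antiviral genes were expressed. Lineages were compared on summed counts with each library as a block, so that 4 values entered for each lineage. Lineages were unevenly spread over the antibody tags described further below. Tag 2 held 697 HR- luminal and 1 basal single-tag cell in the Brca2mut/WT control, and 409 and 11 in Brca2mut/WT HU. Without tag 4, 40 of 124 HR+ luminal cells of the Brca2mut/WT control remained. No tag was left out or blocked here, and the part of this spread in the lineage differences was not tested. Of the 33 members, 26 were lower in basal than in HR- luminal cells and 1 was higher, whereas among 13251 genes 33.3% were lower and 32.4% higher. Against HR- luminal cells, HR+ luminal cells had 22 members lower and 3 higher, with 34.2% and 31.3% of all genes called. The median log2 difference of the members was −0.81 in basal and −0.61 in HR+ luminal cells, beside −0.01 and −0.05 over all genes. In cells without any immune, stromal or endothelial marker UMI the counts were 26 and 1 in basal and 20 and 2 in HR+ luminal cells. Dcn is among these markers, so this choice removed many HR+ luminal cells. It kept 73, 80, 58 and 81 of 176, 146, 124 and 123 in the usual library order. A call lost in such cells was not separated from this loss of cells. Without the wild-type control 5 members were higher in HR+ luminal cells, beside 29.7% of all genes. With all cells, 21 members were lower in both lineages and 6 in neither (edgeR quasi-likelihood test, Benjamini-Hochberg adjusted over all genes). The share of all genes is not given for these counts or for the marker-free ones, so they cannot be read against it. Detection differed by gene, and in the wild-type control a UMI was found in 98.6% of HR- luminal, 92.9% of basal and 95.5% of HR+ luminal cells for Bst2, and in 81.1%, 30.7% and 27.3% for Ifit3.

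**Figure D1:**
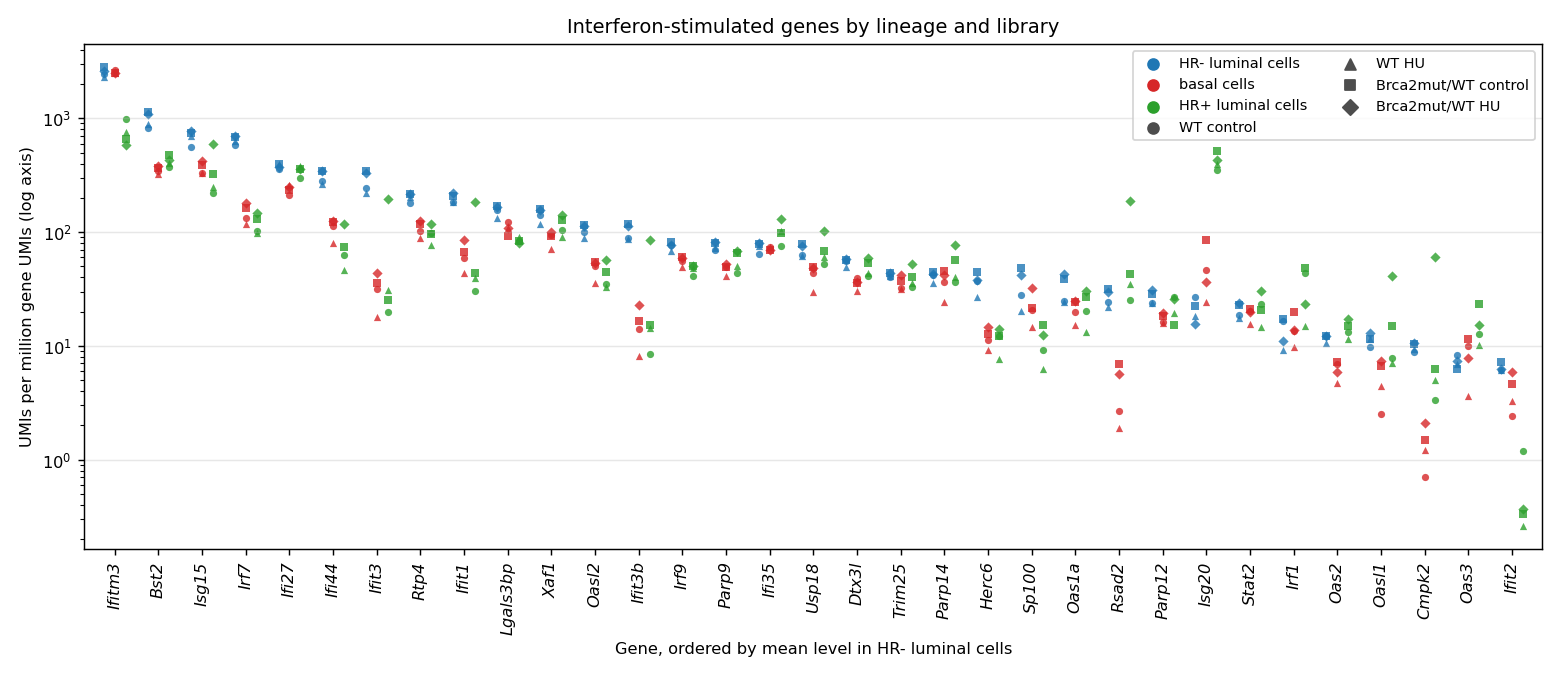
Level of each of the 33 genes in CPM, UMIs scaled to 1000000 gene UMIs (log axis), by lineage (colour) and library (symbol), with genes ordered by their mean in HR- luminal cells. The HR- luminal points lie above the basal and HR+ luminal points for most genes, Isg20 is highest in HR+ luminal cells, and Ifit1, Ifit3, Rsad2 and Cmpk2 have a high HR+ luminal point in Brca2mut/WT HU.

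The Ifit genes encode proteins that bind foreign RNA ends, and all 4 lie close together on chromosome 19. HR- luminal Ifit3 was at 243, 220, 346 and 330 CPM. The same libraries gave 31.3, 18.1, 35.8 and 43.5 CPM in basal cells, so the lineages did not overlap. The log2 difference of basal from HR- luminal cells was −3.35 (SE 0.41, adjusted p = 2.4e-05). HR- luminal Ifit1 was at 183, 182, 208 and 222 CPM and basal Ifit1 at 59.65, 43.5, 67.4 and 84.4, again without overlap (log2 difference −1.83, SE 0.29, adjusted p = 0.000203). All 4 Ifit genes were lower in both lineages. Ifit3 and Ifit3b share 30.9% of the 31-base words in the last 600 bases of the Ifit3 transcript, and the split of reads between them is therefore uncertain.

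The Oas genes encode sensors of double-stranded RNA or relatives of them. Oasl2 was lower in basal cells (35.7 to 54.4 CPM) than in HR- luminal cells (89 to 116 CPM), and Oas1a, Oas2 and Oasl1 were also lower. Oas3 in HR- luminal cells was at 8.31, 6.88, 6.27 and 7.32 CPM. In HR+ luminal cells it was at 12.8, 10.2, 23.1 and 15.4 CPM, above every HR- luminal value (log2 difference 0.84, SE 0.27, adjusted p = 0.0181). That call was lost without the Brca2mut/WT control (adjusted p = 0.0926), without Brca2mut/WT HU (0.0607) and in cells free of immune, stromal and endothelial marker UMIs (0.0722). Oas1a shares 75.3% of its terminal 31-base words with Oas1g, and its counts carry that uncertainty throughout.

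Isg15 encodes a ubiquitin-like protein that is conjugated to other proteins and also secreted. HR- luminal cells had 564, 696, 748 and 769 CPM of it and basal cells 330, 332, 386 and 421. The ranges did not overlap (log2 difference −1.05, SE 0.16, adjusted p = 0.000115). Herc6, a ligase that attaches Isg15, had a log2 difference of −1.74 (SE 0.08, adjusted p = 1.64e-08) in basal and −1.86 (SE 0.1, adjusted p = 4.47e-08) in HR+ luminal cells. Usp18, the protease that removes Isg15 and restrains the type I receptor, was lower in basal cells (30 to 49.2 CPM, against 61.5 to 78 in HR- luminal cells). In HR+ luminal cells Usp18 spanned 52.6 to 102 CPM and was not called (adjusted p = 0.229). With no upper gene limit and under 10% mitochondrial UMIs it was called lower there (adjusted p = 0.0445). Trim25 and Lgals3bp were lower in both lineages, but Trim25 lost the HR+ luminal call without the wild-type control, wild-type HU or Brca2mut/WT control library (adjusted p = 0.139, 0.0977 and 0.0904) and in marker-free cells (0.155).

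Irf7, the transcription factor that amplifies interferon gene expression, differed most clearly among the factors. HR- luminal levels were 587, 628, 688 and 693 CPM and basal levels 132, 118, 163 and 180 (log2 difference −2.29, SE 0.08, adjusted p = 2.18e-09). HR+ luminal cells had 103, 97.4, 131 and 147 CPM (log2 difference −2.65, SE 0.08, adjusted p = 9.38e-10). Irf9 and Sp100, the latter a nuclear body protein, were lower in both lineages. Stat2 stayed between 14.7 and 30 CPM in every lineage and library and was called in neither comparison. In basal cells Stat2 was called lower with no filter on low counts (adjusted p = 0.0367), with doubled lineage thresholds (0.0204) and without the wild-type control (0.0463). With no upper gene limit and under 10% mitochondrial UMIs it was called lower in basal (0.000378) and HR+ luminal cells (0.0216). Irf1, which is induced by interferon gamma and by other signals, was at 43.4, 15, 47.8 and 23.1 CPM in HR+ luminal cells against 16.5, 9.26, 17.1 and 11 in HR- luminal cells. It was higher in HR+ luminal cells in each library, although the ranges overlapped (log2 difference 1.03, SE 0.15, adjusted p = 0.000124).

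Among the effectors, Bst2, which tethers budding virus to the membrane, had HR- luminal levels of 814, 896, 1144 and 1097 CPM. It was at 343, 326, 369 and 384 CPM in basal and 372, 407, 472 and 431 in HR+ luminal cells, all below the HR- luminal range. The log2 differences were −1.6 (SE 0.06, adjusted p = 3.88e-09) and −1.41 (SE 0.06, adjusted p = 1.03e-08). Ifitm3, which blocks fusion of virus in endosomes, behaved differently. It was at 2473, 2303, 2827 and 2618 CPM in HR- luminal and 2645, 2510, 2525 and 2513 CPM in basal cells, which overlapped (adjusted p = 0.291). With no upper gene limit and under 10% mitochondrial UMIs, Ifitm3 was called lower in basal cells (log2 difference −0.321, adjusted p = 0.0376). HR+ luminal cells had only 987, 762, 654 and 587 CPM (log2 difference −1.98, SE 0.12, adjusted p = 7.17e-08). Rtp4, a Golgi chaperone that is induced by interferon, was lower in both lineages.

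Isg20, an exonuclease that degrades RNA, ran opposite to most members. Its level was 350, 398, 513 and 434 CPM in HR+ luminal cells against 26.7, 18.35, 22.4 and 15.5 in HR- luminal cells, an 18.1-fold difference (log2 4.18, SE 0.25, adjusted p = 8.11e-08). Basal cells had 46.6, 24.3, 84.3 and 36.4 CPM, also above HR- luminal cells in each library (log2 difference 0.97, SE 0.23, adjusted p = 0.00344). It was the only member called higher in both lineages.

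Parp9 and Dtx3l form a complex and overlap head to head on chromosome 16, while Parp12 and Parp14 also transfer ADP-ribose. Parp9, Parp12 and Dtx3l were lower in both lineages, with log2 differences of −0.75 to −0.78 in basal cells and −0.35 to −0.61 in HR+ luminal cells. Parp14 reached an adjusted p of 0.0501 in basal and 0.539 in HR+ luminal cells. It was called lower in basal cells with no filter on low counts (adjusted p = 0.015) and with doubled lineage thresholds (0.0412). The same held without Brca2mut/WT HU (0.0342) and with no upper gene limit and under 10% mitochondrial UMIs (0.00349). Parp12 lost the HR+ luminal call without the Brca2mut/WT control (adjusted p = 0.0605) and in marker-free cells (0.0979). Ifi44, a gene of uncertain function, had HR- luminal levels of 278, 263, 342 and 343 CPM against 62.8, 46.5, 74.55 and 117 CPM in HR+ luminal cells (log2 difference −2.27, SE 0.13, adjusted p = 5.58e-08). Ifi27 and the apoptosis-linked Xaf1 were lower in both lineages, and Ifi35 was called in neither. Ifi35 was called higher in HR+ luminal cells with doubled lineage thresholds (adjusted p = 0.0231), with single-tag cells (0.0444) and without the wild-type control (0.0101). In basal cells it was called lower without the wild-type control (0.0178) and with no upper gene limit and under 10% mitochondrial UMIs (0.0192).

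In HR+ luminal cells of Brca2mut/WT HU, several members had a far higher level than in the other 3 libraries, and few cells held most of these UMIs. Ifit3 was at 19.7, 30.7, 25.1 and 195 CPM. In Brca2mut/WT HU, the 5 cells with most Ifit3 held 434 of 533 UMIs (81.4%) among 123 cells. Leaving out the 5 highest cells of each library gave 13.4, 6.31, 17.1 and 38.2 CPM. Rsad2, which encodes the antiviral enzyme viperin, was at 25.35, 35.2, 42.9 and 189 CPM with all cells and at 15.35, 14.7, 26.6 and 47.1 without the 5 highest. Cmpk2, the neighbour of Rsad2 on chromosome 12, was at 60.4 CPM in Brca2mut/WT HU and at 7.39 without its 5 highest cells. The Brca2mut/WT HU value stayed the highest of the 4 for each of these genes, by a smaller margin. In that library 8 distinct cells made up the 5 highest for Ifit1, Ifit3, Ifit3b, Rsad2, Cmpk2 and Oasl1, and 5 of them ranked so for 3 or more of the 6 genes.

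The lineage comparison of Rsad2 and Cmpk2 therefore rested on this library. Cmpk2 had a log2 difference of 0.14 (SE 0.53, adjusted p = 0.824) between HR+ and HR- luminal cells, and without Brca2mut/WT HU it was −1.17 (adjusted p = 0.000908). Rsad2 had a log2 difference of 0.87 (SE 0.36, adjusted p = 0.0501). Over 12 alternatives its adjusted p ran from 0.0258, without the wild-type control, to 0.372, without Brca2mut/WT HU. In basal cells the levels of these genes were low, at 0.706 to 2.1 CPM for Cmpk2 and 1.88 to 6.86 CPM for Rsad2. There too, 40 of the 46 Rsad2 UMIs of the Brca2mut/WT control were in 5 cells.

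**Figure D2:**
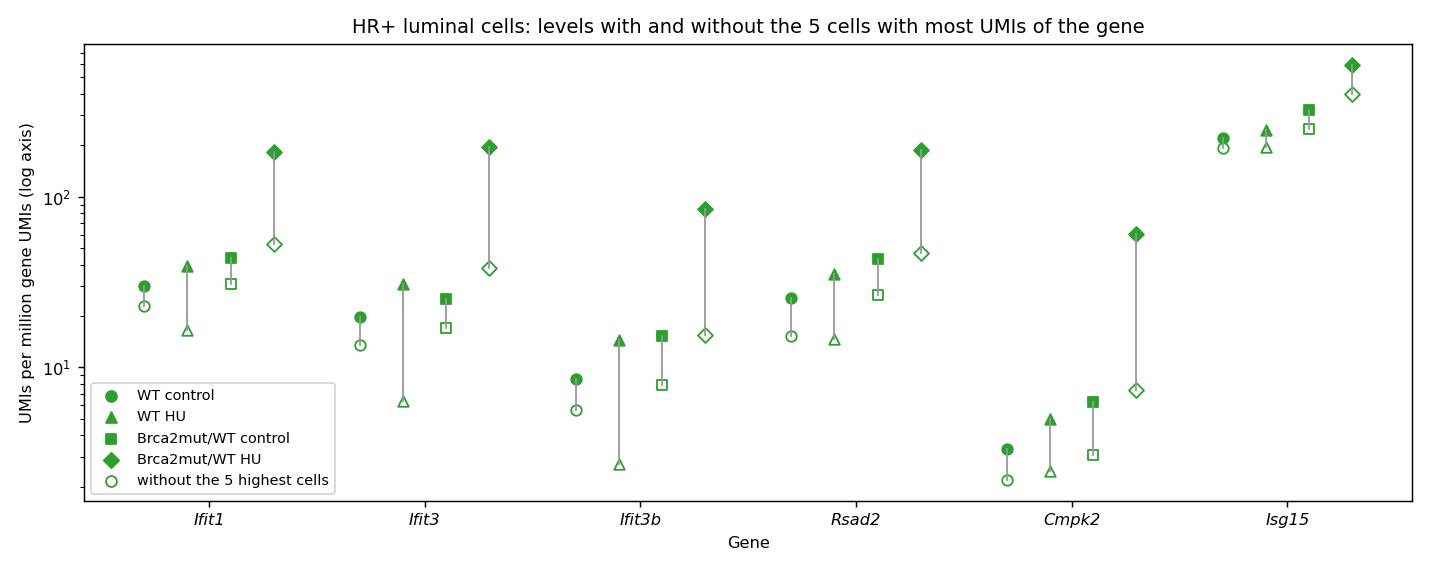
Level of 6 genes in HR+ luminal cells in CPM (log axis) for the 4 libraries, with all cells (filled) and without the 5 cells that had most UMIs of the gene (open). The filled and open points are farthest apart for Ifit3, Ifit3b and Cmpk2 in Brca2mut/WT HU and for Ifit3 and Ifit3b in wild-type HU.

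The second question was how genotype and HU related to the level of these genes. Conditions had 1 library each and were compared without a test, and intervals cover counting error only. In HR- luminal cells 31 members reached 10 CPM in at least 1 library. HU against control gave 1 member at least 1.5-fold lower in each genotype and 0 higher, where 0.776% (wild type) and 0.763% (Brca2mut/WT) of 7860 genes were lower and 0.458% and 0.331% were higher. That member was Irf1, at 16.5 and 9.26 CPM in wild-type control and HU (log2 ratio −0.77, 95% interval −0.88 to −0.66) and at 17.1 and 11 CPM in Brca2mut/WT control and HU (−0.59, −0.71 to −0.47). In Brca2mut/WT the count was 0 with only single-tag cells, without tag 1, with the wider cell filter and without marker-positive cells. Isg20 was next, with log2 ratios of −0.52 and −0.50. The median log2 HU ratio of the members was −0.08 in wild type and −0.03 in Brca2mut/WT, beside 0.02 and 0.01 for all genes. Each library also held cells marked with 4 antibody tags, described further below, and the HU ratio was uneven over them. A tag number need not mean the same source in different libraries, so a ratio within a tag number may compare different pools. For the 30 members with a mean of at least 10 CPM over the 4 libraries, a floor chosen after seeing the data, the median within tags 1 to 4 was 0.0752, 0.261, 0.101 and −0.514 in Brca2mut/WT, beside 0.0329, 0.0291, 0.026 and 0.077 over all genes. In tag 4 of Brca2mut/WT, 10 of 30 members were at least 1.5-fold lower with HU (2.38% of all genes). In wild type the medians were 0.088, −0.3, −0.202 and −0.256, with 5 of 30 members that much lower in tag 2 (7.18% of all genes) and 4 in tag 4 (2.94%).

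Between genotypes the member median lay higher in Brca2mut/WT HR- luminal cells over all tags, but not within each tag number. Over all tags the median log2 ratio was 0.23 for control and 0.26 for HU libraries, beside 0.06 and 0.05 over all genes. Only Sp100 and Oas1a passed 1.5-fold, in both comparisons, where 0.56% and 0.522% of all genes were that much higher. Sp100 was at 28.2 CPM in the wild-type control and 48.1 in the Brca2mut/WT control (log2 ratio 0.75, 0.68 to 0.82), and at 20.3 and 41.8 CPM in the HU libraries (1.01, 0.92 to 1.09). Oas1a was at 24.6 and 38.7 CPM in the controls (0.63, 0.56 to 0.7) and at 24.4 and 42.6 in the HU libraries (0.78, 0.7 to 0.86). Oas1a in the controls passed the limit narrowly, and Ifit3 in the HU libraries fell just short of it (0.58, 0.55 to 0.61). Ifi27 and Isg20 did not follow the others, with log2 ratios of −0.09 and −0.23 in the HU libraries. Wild-type HU was below all 3 other libraries with separate intervals for 13 of the 31 members, against 10.6% of all genes. The wild-type control was so for 7, against 13.9%.

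**Figure D3:**
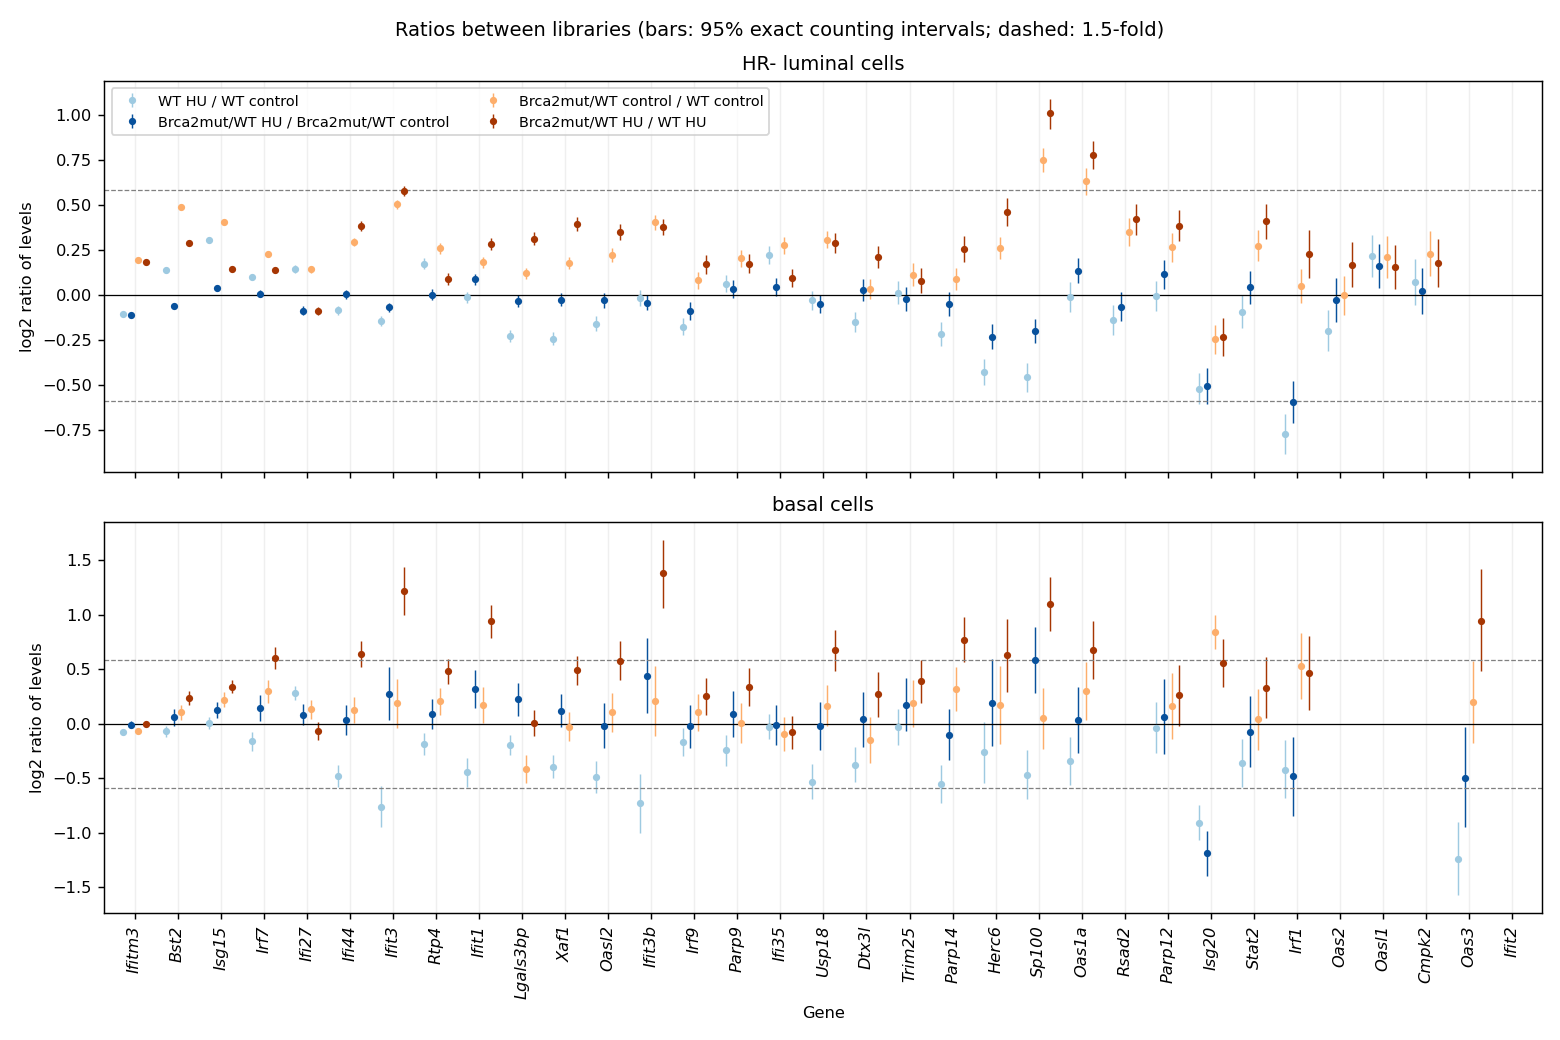
Log2 ratios of levels between libraries for each gene that passed the level floor, in HR- luminal cells (top) and basal cells (bottom), with 95% exact counting intervals and dashed lines at 1.5-fold. In HR- luminal cells most ratios stay inside the lines, Irf1 lies below them for HU, and Sp100 and Oas1a lie above them between genotypes. In basal cells Ifit3, Ifit3b and Sp100 are highest for Brca2mut/WT HU over wild-type HU.

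The genotype difference was uneven over the antibody tag numbers. No key links these numbers between libraries, so the ratios below do not hold the source of the cells fixed. Within tags 1 to 4 the median log2 ratio of the same 30 members was 0.175, 0.361, −0.233 and 0.209 between the controls, beside 0.0588, 0.0672, −0.0221 and −0.0408 over all genes. Between the HU libraries it was 0.152, 1.02, −0.00691 and −0.107, beside 0.0343, 0.155, 0.0141 and 0.022. When tag 2 was left out of every library, Sp100 was lower in the Brca2mut/WT control (log2 ratio −0.17), and the counts of members at least 1.5-fold higher went from 2 to 0 in the controls and from 2 to 1 in the HU libraries (0.103% and 0.193% of all genes). Without tag 3 the counts were 7 and 5 (1.42% and 1.18%), and without tag 1 they were 2 and 4 (0.744% and 1.29%). With no upper gene limit and under 10% mitochondrial UMIs they were 1 and 14 (0.715% and 1.89%).

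In basal cells 28 members passed the level floor. Brca2mut/WT HU was at least 1.5-fold above wild-type HU for 11 of them (Ifit1, Ifit3, Ifit3b, Oas1a, Oas3, Usp18, Herc6, Irf7, Sp100, Parp14 and Ifi44), against 4.01% of 8476 genes. Over the 27 members with a mean of at least 10 CPM over the 4 libraries it was 10, without Oas3, against 3.72%. Ifit3b was at 14.2, 8.15, 16.5 and 22.7 CPM in the usual library order, a log2 ratio of 1.38 (1.06 to 1.69) between the HU libraries. Ifit3 had a ratio of 1.22 (1 to 1.44) and Sp100 of 1.1 (0.85 to 1.35). Ifit3 and Ifit3b were lowest in wild-type HU and highest in Brca2mut/WT HU. Wild-type HU was below the 3 other libraries with separate intervals for 15 of the 28 members, against 5.39% of all genes, and the wild-type control for 1, against 2.57%. With no upper gene limit and under 10% mitochondrial UMIs, 0 members were at least 1.5-fold higher in Brca2mut/WT HU than in wild-type HU and 1 was that much lower. Ifit3 then had a log2 ratio of 0.58 between the HU libraries. The share of all genes is not given for these counts. Basal cells were unevenly spread over the antibody tags. In the usual library order, tag 2 held 49, 336, 1 and 11 single-tag basal cells, and tag 4 held 307, 142, 112 and 63. The part of this spread in the basal ratios, between genotypes and for HU, was not tested.

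HU against control in basal cells gave 4 members at least 1.5-fold lower in wild type, where 3.66% of all genes were lower. They were Ifit3 (log2 ratio −0.76), Ifit3b (−0.73), Oas3 (−1.24) and Isg20 (−0.91). In Brca2mut/WT only Isg20 was lower, with a log2 ratio of −1.19 (−1.4 to −0.98), beside 2.54% of all genes. Isg20 was thus lower with HU in both genotypes and in both basal and HR- luminal cells. Within basal cells, Isg20 was the only member at least 1.5-fold higher in the Brca2mut/WT control than in the wild-type control (0.84, 0.68 to 1, beside 1.98% of all genes). The median over members was −0.35 for HU in wild type and 0.06 in Brca2mut/WT, beside 0.03 over all genes in each.

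Each library held cells marked with 4 antibody tags for which no key was found, so the tags were described as unlabelled pools, and a given tag number need not mean the same source in different libraries. A pool held 129 to 1736 HR- luminal cells. In HR- luminal cells tag 2 had the highest level of 31 of 33 members in Brca2mut/WT HU (50.2% of all genes) and 25 of 31 in the Brca2mut/WT control (60.2%). In the wild-type control it was 19 of 31 (41.5%) and in wild-type HU 15 of 31 (21.4%). Tag 2 was at least 1.5-fold above the other tags for 23 members in Brca2mut/WT HU (17.2% of all genes), 21 in the Brca2mut/WT control (13.8%), 9 in the wild-type control (11.8%) and 0 in wild-type HU (3.29%). Ifit2 and Oas3 passed the floor of 10 CPM in Brca2mut/WT HU only through tag 2, where they were high. The floor on the mean over the 4 libraries left 30 members (without Ifit2, Oas3 and Cmpk2). Of these, 18, 15, 25 and 28 were highest in tag 2 in the usual library order (40.5%, 21.1%, 59.8% and 50.4% of all genes), and 9, 0, 21 and 21 were at least 1.5-fold above the other tags there (10.3%, 2.7%, 12.2% and 15.4%). Over all genes the median log2 ratio of tag 2 to the others was 0.22 in both Brca2mut/WT libraries, beside 1.12 for the members in HU and 0.74 in control.

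Sp100 was the most uneven member. In Brca2mut/WT HU it was at 26.2, 147.5, 18.95 and 10.8 CPM in tags 1 to 4, and in the Brca2mut/WT control at 25.7, 142, 16.4 and 17.6. Tag 2 stood alone in both. In the wild-type control the values were 23.3, 66.5, 21.8 and 47, so tags 2 and 4 were high, and in wild-type HU they were 23.7, 15.1, 21 and 19.7, where tag 2 was lowest.

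Ifit3 was at 243, 921, 187 and 251 CPM in tags 1 to 4 of Brca2mut/WT HU and at 246, 682, 180 and 368 in the Brca2mut/WT control. In wild-type HU it ranged only from 208 to 242. In the wild-type control it was at 192.5 CPM in tag 1 and 324.8 in tag 2. Bst2 was at 828, 2835, 778 and 758 CPM in Brca2mut/WT HU, and Ifitm3 at 2074, 6076, 1968 and 1704. Ifitm3 and Bst2 thus had 1 high pool of 4 there, as Ifit3 did. Rsad2 had 2 high pools in Brca2mut/WT HU, at 18.2, 85.6, 15.5 and 73.3 CPM. Tag 4 held only 129 HR- luminal cells there. In that library 1 HR- luminal cell held 213 of 2129 Rsad2 UMIs, and its pool was not looked up. A high Rsad2 pool may therefore rest on few cells. Ifi27 was lowest in tag 2 of that library (291 CPM, against 362 to 447).

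Within tag 2, Brca2mut/WT HU was at least 1.5-fold above wild-type HU for 22 of the same 30 members, with 10.6% of all genes that much higher. The count was 1 in tag 1, 1 in tag 3 and 3 in tag 4, with 0.185%, 0.278% and 3.56% of all genes. Between the controls it was 8 in tag 2, with 6.09% of all genes. Within tag 2 the ratio was 9.21-fold for Sp100, 3.79-fold for Ifit3, 3.6-fold for Rsad2 and 2.6-fold for Bst2. Without a key to the tags, these ratios may compare pools of different source. HR- luminal markers summed to 9106 to 19850 CPM in tags 2 and 4 and to 26120 to 30830 CPM in tags 1 and 3, over the 4 libraries. Ptprc was at 0 in all 16 pools. The part of this marker difference in the result was not tested.

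**Figure D4:**
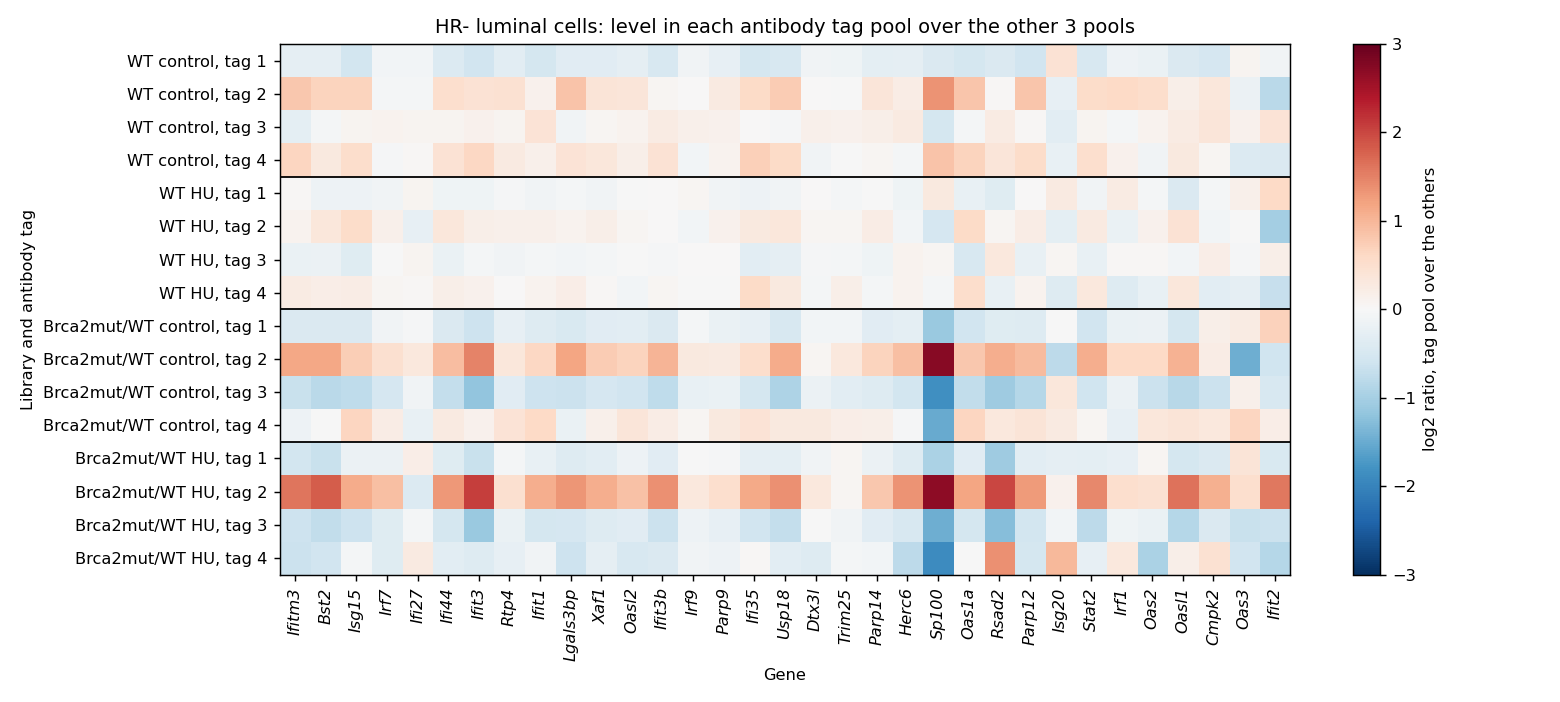
Log2 ratio of the level of each gene in 1 antibody tag pool to the other 3 pools of the same library, in HR- luminal cells, with red for higher and blue for lower. The tag 2 rows of both Brca2mut/WT libraries are red for most genes and darkest for Sp100, and the wild-type HU rows are pale.

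The third question was whether the genes were detected in the same cells. Each HR- luminal cell was thinned to 5000 UMIs and ranked by how many of the other members it held, and the level in the top 5% of cells was compared with that in the lower 50%. A median HR- luminal cell held 11 to 12 of the 33 members at this depth, a basal cell 6 to 8 and an HR+ luminal cell 7 to 8. Of 31 members tested, 18 were at least 2-fold higher in the top cells in all 4 libraries, against 0.83% of 7591 genes. The median log2 ratio was 1.56 for members and 0.04 for all genes.

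Rsad2 had the largest ratio, 16.1-fold on average, with log2 values from 3.43 to 4.71 over the libraries. Cmpk2 followed at 8.7-fold, Ifit3 at 7.35-fold, Oasl1 at 7.3-fold and Ifit3b at 5.79-fold. Ifit2, at 5.86 CPM below the level floor, had a 10.1-fold ratio. On this measure, cells that held many other members had more of most members, but few cells may weigh heavily for some. Before thinning, the 5 HR- luminal cells with most Rsad2 held 15.4%, 21.9%, 14% and 14.7% of its UMIs in the usual library order. For Ifit2 the shares were 21.8%, 26.5%, 27.6% and 12.8%, and for Cmpk2 15.7%, 16.1%, 13.2% and 7.01%. For Ifit3 they were only 2.95%, 2.65%, 1.87% and 1.91%. How far those cells set the ratios was not tested. Sp100 reached 5.27-fold and Ifit1 5.01-fold. Isg15, Usp18, Parp14 and Herc6 lay between 3.46-fold and 4.51-fold.

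Irf1, Irf7, Irf9 and several highly expressed members varied less between these cells. Irf7 had a ratio of 1.77-fold, Irf9 of 1.49-fold and Irf1 of 1.42-fold, whereas Stat2 had 3.25-fold. Ifitm3 (1.9-fold), Rtp4 (1.62-fold) and Trim25 (1.71-fold) were also under 2-fold on average. Isg20 had 1.35-fold and Ifi27 0.874-fold, the only ratio below 1. Of the 10 members with the response element core in the promoter window, the average ratio ran from 1.9-fold for Ifitm3 to 16.1-fold for Rsad2. Members with an entry and no match there ran from 1.35-fold for Isg20 to 10.1-fold for Ifit2. Among them, Cmpk2, Oasl1 and Sp100 were also above 5-fold, while Irf1, Irf7, Irf9, Trim25 and Lgals3bp were under 2-fold.

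**Figure D5:**
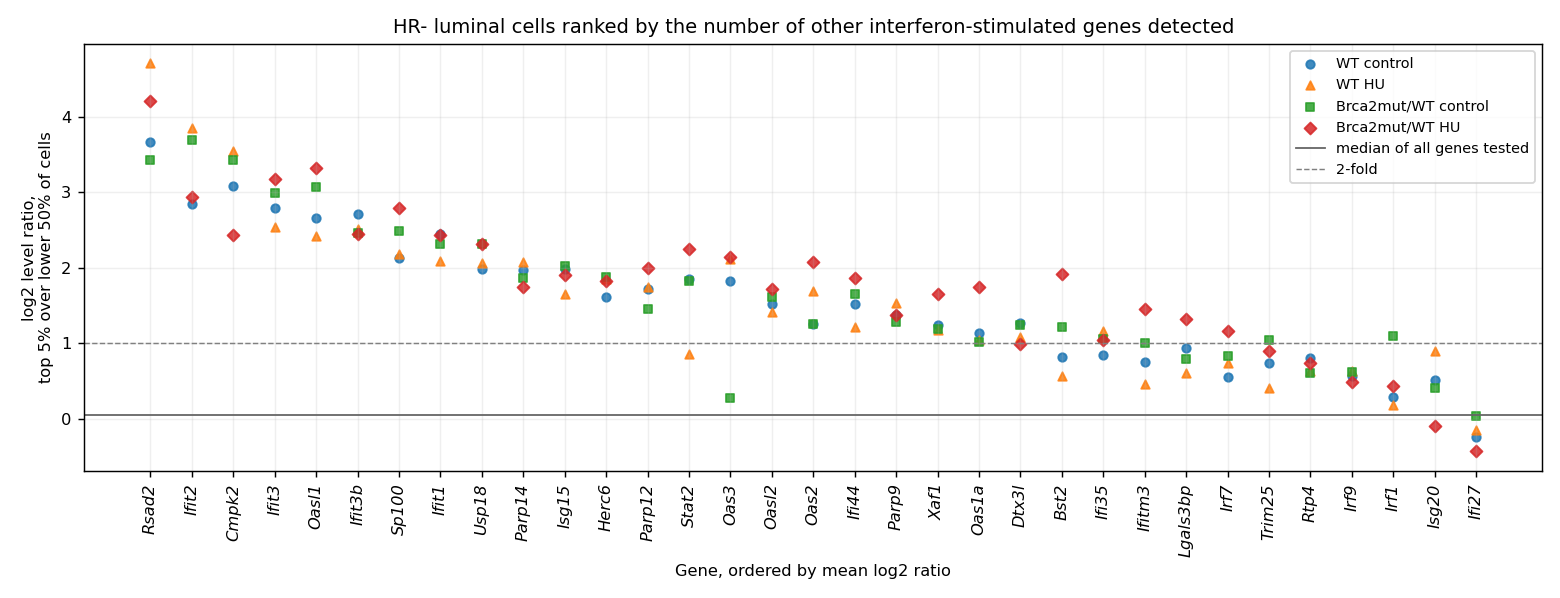
Log2 ratio of the level of each gene in the 5% of HR- luminal cells with most other members detected to the 50% with fewest, per library (symbols), after thinning each cell to 5000 UMIs; the solid line is the median of all genes tested and the dashed line is 2-fold. Rsad2, Ifit2, Cmpk2, Ifit3 and Oasl1 lie highest and Ifi27 lies at or below 0.1 in every library.

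Genes outside the list that were most concentrated in the same cells were Slfn5 (7.54-fold), Tmigd1 (7.17-fold), Gbp2b (6.56-fold), Iigp1 (6.2-fold) and Tor3a (6.11-fold). Slfn5, Gbp2b, Iigp1 and Tor3a are themselves interferon-inducible. Tmigd1, an adhesion molecule, was uneven, with log2 values from 0.33 to 5.12 over the libraries. The cells with most members were also unevenly placed. In Brca2mut/WT HU, tag 2 gave 15.8% of the thinned single-tag HR- luminal cells and 71.4% of the top cells, and in the Brca2mut/WT control 21.8% and 57.4%. In wild-type HU the shares were 18.2% and 22.5%.

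The ligands were nearly absent. Ifnb1 had 263 UMIs in 18 of 33268 cells, Ifnl2 84 UMIs in 8 cells and Ifnl3 44 UMIs in 7 cells. Ifng and 5 listed interferon alpha genes were found in 0 cells, which allows a share of cells with a UMI of up to 0.00902% and sets no limit on cells that express these genes. Ifne and Ifnk, epithelial type I interferons, had 12 and 8 UMIs. Only 9 cells held 3 or more UMIs of Ifnb1, Ifnl2 and Ifnl3 together, and 5 of them passed the cell filter.

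A wild-type HU cell with 109 Ifnb1 UMIs among 7647 was HR- luminal, carried tag 4, and held 18 UMIs of Ifit3, 29 of Rsad2 and 0 of Ifit1. It alone held most of the Ifnb1 counted in that library. A wild-type control cell of no lineage, with 19 Ifnb1 UMIs among 10919, held 312 UMIs of Ifit1 and 25 of the 33 members. An HR+ luminal cell of Brca2mut/WT HU held 5 Ifnb1, 11 Ifnl2 and 3 Ifnl3 UMIs with 127 of Ifit3 and 102 of Rsad2, so ligand and target genes were counted in the same droplet. In another HR- luminal cell, from the wild-type control, 4 Ifnb1 UMIs stood beside 0 of Ifit3 and Rsad2, but also beside 40 of Isg15, 18 of Oasl1 and 4 of Ifit1, with 16 members detected.

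Receptors and signalling genes of the pathway were present in every lineage. Ifnar2, a chain of the type I receptor, was at 96.4 to 103 CPM in HR- luminal, 49.6 to 72.7 in basal and 46.9 to 63 in HR+ luminal cells. Ifnlr1, the specific chain of the type III receptor, was at 8.64 to 10.65, 4.21 to 5.9 and 5.21 to 6.6 CPM. Of 6 receptor genes, 3 were lower and 1 higher in basal cells, and 3 were lower and 1 higher in HR+ luminal cells. Of 9 signalling genes, 6 were lower and 1 higher in basal cells, with 5 and 4 in HR+ luminal cells. Over all genes 33.3% were lower and 32.4% higher in basal cells, and 34.2% and 31.3% in HR+ luminal cells. With so few receptor and signalling genes, their counts were not read as a lineage difference. Of 26 further induced genes tested, 20 were lower and 1 higher in basal cells and 21 and 0 in HR+ luminal cells, with medians of −1.01 and −0.98 on the log2 scale. Between libraries, 0 of 6 receptors and 0 of 7 signalling genes passed 1.5-fold in HR- luminal cells. In basal cells 3 of 5 receptor genes tested were at least 1.5-fold higher in Brca2mut/WT HU than in wild-type HU, beside 4.01% of all genes. With HU in wild type 1 of 5 was that much lower, beside 3.66%. Of 8 signalling genes tested in basal cells, 0 passed 1.5-fold.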

How the data were processed

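The authors deposited UMI counts per gene and cell, whole numbers without normalization, with 4 antibody tags that were left out of gene totals. Submitters' notes name Cell Ranger 6.0.2 on mm10, and the deposited tables name 6.1.1. The limits that the paper states for its cell filter were applied (between 1000 and 6000 genes, mitochondrial share below 5%), and no doublet caller was run. A single tag needed at least 100 tag UMIs and 75% on that tag. Levels are CPM (scaled to 1000000 gene UMIs), not divided by transcript length, and are compared within a gene. Members, lists and tests were chosen with earlier results of these data known. The genes named were all members by group, the 5 non-members most concentrated in the same cells, and the pathway list.

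Lineages were compared on 12 sums (3 lineages, 4 libraries) with edgeR 4.0.16, TMM scaling and a library block, at an adjusted p under 0.05. The spread is that between libraries of different conditions. On simulated counts of basal against HR- luminal cells, 90% of 2-fold and 78% of 1.5-fold changes were recovered among 12735 genes. The simulated sums shared 1 mean profile and 1 spread, had no library effect, and 100 genes were changed at each fold. In the data 33.3% of genes were lower and 32.4% higher in basal cells, so this recovery need not hold for the real comparison. Ratios used a floor of 10 CPM and a pseudocount of 1 CPM, with exact 95% conditional intervals. PCR duplicates are removed by UMIs, and intervals cover counting error only. Alternatives covered filter, scaling, DESeq2, thresholds, tags, thinning and left-out libraries.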

Additional observations from a re-analysis of the deposited data

Results flagged for a closer look

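HU went with opposite ratios in the 2 genotypes, both counting intervals excluding 0, for 8 combinations of member and lineage. In basal cells these were 6 of 28 members, beside 3.68% of 8476 genes under the same rule, all 6 lower in wild type and higher in Brca2mut/WT (1.91% of all genes). In HR- luminal cells they were 2 of 31 members, beside 7.98% of 7860 genes. With 1 library per condition the difference between genotypes was not tested. In basal cells the log2 ratio of HU to control was −0.45 in wild type and 0.32 in Brca2mut/WT for Ifit1, −0.76 and 0.28 for Ifit3, −0.73 and 0.44 for Ifit3b, −0.47 and 0.58 for Sp100, −0.20 and 0.23 for Lgals3bp, and −0.16 and 0.14 for Irf7. With no upper gene limit and under 10% mitochondrial UMIs, the basal Ifit3 ratios were −0.419 and −0.00894, no longer of opposite sign. Basal cells were also unevenly spread over the antibody tags, and the part of this spread in these ratios was not tested. In HR- luminal cells it was 0.14 and −0.06 for Bst2 and 0.14 and −0.09 for Ifi27.

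Interferon ligands were also counted in cells outside the filter, which no comparison used, above the 3 counts that a count of 0 allows. The wild-type control had 4 such UMIs of Ifnb1, wild-type HU 19 and Brca2mut/WT HU 77. Ifnl2 had 53 and Ifnl3 31 in Brca2mut/WT HU, almost all in 1 cell with 89064 gene UMIs, 387 of Ifit3 and 32 of the 33 members.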

How the results depend on the processing

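Depth limits Ifit2, Oas2, Oas3, Oasl1 and Cmpk2, which lay near or under the floor of 10 CPM, and the HR+ luminal levels, which came from 123 to 176 cells a library. No paired analysis was possible because the libraries carry no shared replicate numbers; the lineage comparison was blocked by library, and without the block it gave 26 lower and 1 higher in basal and 21 and 4 in HR+ luminal cells.

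Members lower in basal cells numbered 26 to 28 without each library in turn, and those higher numbered 1. In HR+ luminal cells the lower count was 20 to 23 and the higher count 2 to 5. The higher count in HR+ luminal cells was 5, against 3, with doubled lineage thresholds (31.8% of all genes) and with single-tag cells only (30.7%). Cmpk2 ranged there from −1.17 without Brca2mut/WT HU, where it reversed, to 0.597 without the wild-type control. DESeq2 gave 26 lower and 1 higher in basal and 22 and 3 in HR+ luminal cells. The share of all genes is not given for most of these settings, so the counts show only how the number of members moved.

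Counts of members past 1.5-fold between libraries moved more. The share of all genes past that fold is given further above for some of these settings only. A count without it shows that the number of members moved, and not whether it exceeds the share of all genes. The wider cell filter (no upper gene limit, under 10% mitochondrial UMIs) gave, in HR- luminal cells, 2 lower for HU in wild type and 0 in Brca2mut/WT, and 1 and 14 higher for Brca2mut/WT over wild type in control and HU. In basal cells it gave 1 higher for HU in wild type, 2 lower for HU in Brca2mut/WT, 3 higher between controls, and 0 higher and 1 lower between HU libraries. Single-tag cells gave 0 lower for HU in Brca2mut/WT HR- luminal and 1 higher in basal cells.

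In HR- luminal cells, leaving out tag 1 gave 2 lower for HU in wild type, 0 lower in Brca2mut/WT and 4 higher between HU libraries. Tag 2 left out gave 0 and 1 higher between genotypes, with Sp100 reversed to −0.17. Tag 3 left out gave 3 lower for HU in wild type and 7 and 5 higher between genotypes. In basal cells, leaving out tag 1 gave 2 lower for HU in Brca2mut/WT. Tag 3 left out gave 3 higher for HU in Brca2mut/WT and 0 between controls, and tag 4 left out gave 11 lower for HU in wild type, 4 lower in Brca2mut/WT and 2 higher between controls. Without tag 4 the basal cells fell from 709 to 402 in the wild-type control and from 868 to 726 in wild-type HU. The share of all genes is not given for these basal counts, so they cannot be read against it.

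Thinning to 5000 UMIs gave, in basal cells, 8 lower for HU in wild type, 1 higher and 3 lower in Brca2mut/WT, and 2 higher and 1 lower between controls. No level floor with a pseudocount of 0.1 CPM gave 2 higher for HU in wild type, 1 higher in Brca2mut/WT and 5 higher between controls. Cells without immune, stromal or endothelial marker UMIs, a choice made after seeing the data, gave 0 lower for HU in Brca2mut/WT HR- luminal and 1 higher in basal cells.

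A floor of 10 CPM on the mean over the 4 libraries, also chosen after seeing the data, gave 3 lower for HU in wild-type basal cells instead of 4, and 28 instead of 31 members highest in tag 2 of Brca2mut/WT HU. At that floor the shares of all genes were 3% and 50.4%. With all lineages in, tag 2 of wild-type HU was highest for 7 members instead of 15. The count of members concentrated in the same cells was 17 to 19 under its 5 alternatives. The causes were not tested.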
